A study of Mus musculus with 8 samples.

Results

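The 10 genes described here encode the kinase complex mTORC1 and the proteins that regulate it: Mtor and Rptor (the catalytic and substrate-binding subunits), Tsc1, Tsc2 and Rheb (its GTPase switch), Deptor (an inhibitor bound to mTOR), and the stress-responsive inhibitors Ddit4, Ddit4l, Sesn1 and Sesn2. They were picked by gene symbol and not by a threshold on their values, though earlier results of these data were known. All 10 were among the 14012 genes of the deposited table. RNA-seq was performed on the quadriceps femoris (QF), a thigh muscle, of 4 Grpel1 skm-/- mice and 4 Grpel1 flox/flox control mice, 1 library per mouse. In the knockouts a tamoxifen-inducible Cre is driven by the human skeletal alpha-actin promoter, which is active in muscle fibres. This Cre removes the floxed segment of Grpel1, the gene of the mitochondrial co-chaperone GRPEL1. Tamoxifen was started at 5 weeks of age and given for 5 days, and muscle was taken at the end point of the disease. The controls carry the same floxed alleles. The study calls the floxed littermates untreated where it describes body weight, but also kept floxed mice given tamoxifen, and for the mice of these libraries the sources used here do not say which. If the controls were untreated, effects of tamoxifen and of the deletion cannot be told apart. The study's floxed mice given tamoxifen lacked Cre, and whether the controls of these libraries carried Cre is not given either. If they lacked it, effects of the active Cre and of the deletion cannot be told apart.

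mTORC1 is a protein kinase on the lysosome that promotes protein synthesis and restrains autophagy when growth factors, amino acids and energy are available, and in skeletal muscle it is best known for its part in fibre growth. TSC1 and TSC2 form a complex that switches off the small GTPase RHEB, the direct activator of mTORC1. Stress reaches the kinase through the DDIT4 proteins (also called REDD1 and, for DDIT4L, REDD2), which act through the TSC complex, and through the sestrins, which bind the GATOR2 complex of the amino acid branch.

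Sesn2 rose 12.1-fold in Grpel1 skm-/- muscle. Ddit4l fell to 0.317 of the control level and Tsc1 to 0.669, while Mtor, Rptor, Tsc2, Rheb, Deptor, Ddit4 and Sesn1 did not pass the test. Thus 1 member was higher and 2 were lower at an adjusted p under 0.01 (edgeR's quasi-likelihood test, Benjamini-Hochberg adjustment over all genes), where 44.7% of all genes tested passed in either direction, 23.6% higher and 21.1% lower. The share of members called was below that of all genes, so the results below concern single genes and not the list. Their median log2 fold change was -0.11, and that of all genes was 0.07.

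The libraries held 16017565 to 20361144 counts. The 20 most abundant genes took 36.5 to 40.1% of the counts in control mice and 19.7 to 23.5% in knockout mice, and the TMM factors that adjust for composition were 0.747 to 0.844 and 1.19 to 1.33. Levels are given as CPM, the counts divided by the TMM-scaled library size. Grpel1 was 68.4 ± 3.04 CPM in control mice and 65.3 ± 6.11 in knockout mice (SD, n = 4 each; log2 fold change -0.07, SE 0.08, adjusted p = 0.487), so the count of the whole gene does not check the labels, on which every direction here rests. By immunoblot the study found less GRPEL1 protein in the quadriceps of knockout mice. Markers of the muscle fibre were lower in 8 of 8 genes, with a summed level of 204165 to 268557 CPM in control mice and 59409 to 81976 in knockout mice. Markers of satellite cells and myoblasts summed to 24.3 to 30.4 and 102 to 168 CPM (2 of 4 higher), those of macrophages to 31.3 to 77.7 and 67.9 to 118 (1 of 6 higher), of endothelium to 243 to 360 and 175 to 196 (4 of 5 lower) and of fibroblasts to 686 to 1013 and 363 to 501 (3 of 5 lower). Those of Schwann cells summed to 25.8 to 86.3 and 39.3 to 64.6 CPM (0 of 4 called), and no marker was at 0 in any library. The largest single term of the fibre sum was Myh4, a fast-fibre myosin gene, at means of 103899 CPM in control mice and 20582 in knockout mice. Among the satellite cell and myoblast markers, the 2 not called were at log2 fold changes of 0.14 and 0.28, and the largest was at 3.96. The part of these cell types in the results and any shift between fibre types were not tested. In bulk tissue fewer cells of a type and less RNA per cell cannot be told apart. Control replicate 3 stood apart in 6 adipocyte markers, which summed to 30.6 CPM in it, to 507 to 890 in the other controls and to 373 to 1591 in knockout mice (0 of 6 called). For Ddit4, Ddit4l and Sesn1 the values without this library are given beside the gene. Without it the log2 fold change of Tsc1 was -0.53 (adjusted p = 0.00121) and that of Deptor -0.22 (adjusted p = 0.263).

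The promoters of the called members are shown because these 3 genes carry the changes that passed the test, and stress-responsive factors are known to read short motifs near gene starts. Each line gives the 120 bases before the RefSeq start of the gene on GRCm38.p6, 5′ to 3′ on the strand of the gene, and capitals mark a match to TGACNNNGC, the core of the antioxidant response element read by NRF2.
Sesn2, chr4:132510457-132510576, minus strand: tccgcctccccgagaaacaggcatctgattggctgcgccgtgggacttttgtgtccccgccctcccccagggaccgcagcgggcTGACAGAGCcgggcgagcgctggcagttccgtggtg
Ddit4l, chr3:137623552-137623671, plus strand: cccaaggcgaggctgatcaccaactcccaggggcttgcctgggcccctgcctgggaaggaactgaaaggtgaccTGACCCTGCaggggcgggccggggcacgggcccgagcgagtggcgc
Tsc1, chr2:28641113-28641232, plus strand: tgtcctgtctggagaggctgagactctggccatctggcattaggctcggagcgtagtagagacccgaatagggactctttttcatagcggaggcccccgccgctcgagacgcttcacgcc

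Sesn2, which rose, and Ddit4l, which fell, thus both held this core, as did Rheb, which did not pass the test. Among 32851 RefSeq windows from 250 bases before to 50 after a start, searched on both strands, 12.4% held TGACNNNGC, so 3 of the 10 windows of members is a description and not a site. The members with a window were 9, Sesn1 having more than one. TGATGNAA, the core read by ATF4 with a C/EBP partner, was in 3.97% of all windows and in 0 of the 10. ACGTG, the hypoxia response core, was in 19.6% of all windows and in those of Rheb, Ddit4 and Rptor. CACGTG, an E-box that contains ACGTG, was in 7.15% of all windows and in that of Rheb, and the FoxO element GTAAACA was in 3.65% and in a window of Sesn1. The AP-1 element TGACTCA (5.2% of windows), the palindromic glucocorticoid element (0.00913%) and a simplified p53 core (0.712%) were in 0 of the 10. These letters are absent from these short windows only.

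Sesn2 (chromosome 4, 132492804 to 132510456 of GRCm38, minus strand) encodes a leucine-binding sestrin that restrains mTORC1 when amino acids are short. It was at 5.33, 2.88, 4.37 and 3.84 CPM in control replicates 1 to 4, from 66, 44, 61 and 61 counts, and at 38.8, 51.2, 42.8 and 64.8 CPM in knockout replicates 1 to 4, from 930, 1118, 1037 and 1630 counts. Every knockout library was thus above every control library, and the lowest knockout was still several times the highest control. The log2 fold change was 3.60 (SE 0.21, adjusted p = 6.96e-07), a 12.1-fold rise with a 95% interval of 8.75 to 16.8. It stood at the 99th percentile of the fold changes of all genes. An exact permutation test over the 70 assignments of 4 against 4 gave p = 0.0286, the smallest it can give. The rise kept its call in each of 17 alternative analyses, at 3.42 to 4.28 on the log2 scale.

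Sesn1 (chromosome 10, 41810574 to 41908436), a sestrin known as a target of p53 and FoxO factors, showed no such shift. Its level was 29.97, 34.8, 45.9 and 40.8 CPM in control mice and 33.7, 27.4, 49.5 and 32.4 CPM in knockout mice. The groups overlapped throughout, and the highest and the lowest of the 8 libraries were both knockouts. It changed by -0.08 on the log2 scale (SE 0.18, adjusted p = 0.713), with a 95% interval from -0.50 to 0.33 that holds moderate changes in both directions. It turned to 0.021 without control replicate 3 and to 0.015 without knockout replicate 2.

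**Figure D1:**
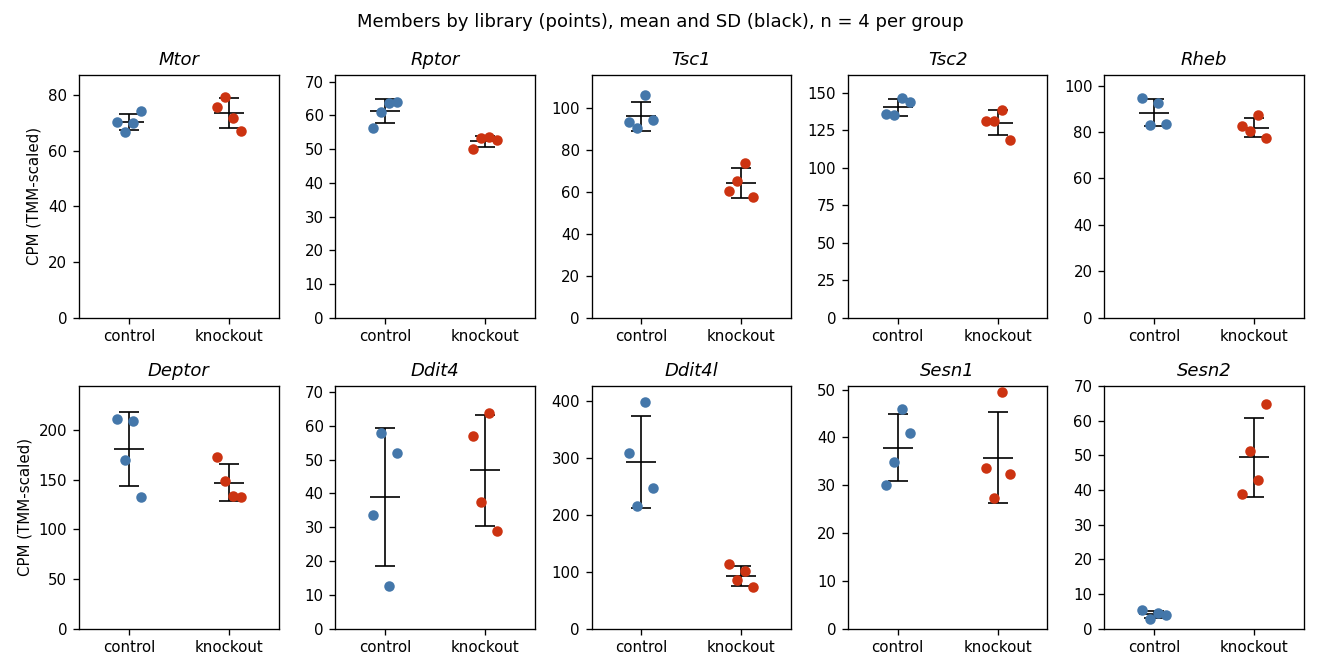
TMM-scaled CPM (vertical axes, each starting at 0) of the 10 genes in 4 control (blue) and 4 knockout (red) libraries, 1 panel per gene, with mean and SD in black. Sesn2 is higher in all knockouts (38.8 to 64.8 CPM against 2.88 to 5.33), Ddit4l and Tsc1 are lower in all of them, Rptor is lower with a small gap, and the groups of the other 6 genes overlap.

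Because the sestrins share a function, the ratio of Sesn2 to Sesn1 was taken within each library, per base of exon, which does not depend on how libraries are scaled. It was 0.223, 0.104, 0.119 and 0.118 in control mice and 1.45, 2.35, 1.09 and 2.51 in knockout mice. Per base of exon, Sesn2 was thus the scarcer transcript of the pair in every control mouse and the more abundant in every knockout mouse. The geometric means were 0.135 and 1.74, a log2 difference of 3.70 (exact permutation p = 0.0286, adjusted p = 0.0458 over 8 pairs of genes). As Sesn1 did not pass the test, this ratio largely repeats the rise of Sesn2 and is no separate support. Sesn3, the remaining sestrin, was at 1.09 ± 0.38 CPM in control mice and 1.83 ± 0.33 in knockout mice (SD, n = 4 each; adjusted p = 0.0374). Summed over Sesn1 to Sesn3, a sum chosen after the values were seen, the sestrin level was 13.4 ± 1.90 RPKM in control mice and 30.1 ± 4.22 in knockout mice (SD, n = 4 each), where RPKM is the same CPM per kilobase of exon. This was a 2.25-fold higher total, without overlap of the groups. The share of Sesn2 in it was 8.87 to 17.4% in control mice and 50.8 to 69.4% in knockout mice, again without overlap. Since the sum was chosen with the values known, it is a description and no p is given for it.

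Ddit4l (chromosome 3, 137623672 to 137628332) encodes the muscle-enriched relative of REDD1. It was at 308, 215, 398 and 247 CPM in control mice and 113, 84.5, 101 and 72.7 CPM in knockout mice. All knockouts lay below all controls. This was a log2 fold change of -1.66 (SE 0.20, adjusted p = 6.41e-05), a level of 0.317 of control with a 95% interval of 0.233 to 0.433 (exact permutation p = 0.0286). The highest control value was in replicate 3, the library poor in adipocyte markers, and without it the log2 fold change was -1.47 (adjusted p = 9.34e-05). The call held in all 17 alternatives, and the value moved to -0.98 when libraries were scaled by their totals alone.

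Ddit4 itself (chromosome 10, 59949675 to 59951770), which encodes REDD1 and is known to be induced by hypoxia, glucocorticoids, DNA damage and ATF4, was the most variable member. It was at 33.5, 57.9, 12.5 and 52.0 CPM in control mice and 57.1, 37.5, 63.8 and 28.9 CPM in knockout mice. The groups overlapped widely, with control replicate 3 far the lowest. Its log2 fold change was 0.26 (SE 0.41, adjusted p = 0.60), and its 95% interval from -0.64 to 1.17 leaves room for a fall to 0.640 or a rise to 2.24 times control. Without control replicate 3 the value was -0.033, and it was -0.036 with the adipocyte marker level as a covariate. The coefficient of variation among controls was 52.6%, higher than in 96.8% of 12464 genes above 1 CPM, where the median was 11.3%; Mtor (4.31%) and Tsc2 (4.15%) were among the steadiest.

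Within each library the ratio of Ddit4 to Ddit4l per exon base was 0.176, 0.435, 0.0505 and 0.339 in control mice and 0.816, 0.717, 1.02 and 0.642 in knockout mice. The groups did not overlap, and the ratio was closer to 1 in every knockout than in any control. The log2 difference was 2.05 (exact permutation p = 0.0286, adjusted p = 0.0458 over 8 pairs). It was 1.41 without control replicate 3, and p rose to between 0.0571 and 0.0857 when any knockout library was left out. The sum of both genes, also chosen after the values were seen, was 131 ± 17.5 RPKM in control mice and 61.9 ± 15.8 in knockout mice (SD, n = 4 each), a level of 0.474 of control, without overlap and likewise a description. The share of Ddit4l in that sum was 69.7 to 95.2% in control mice and 49.5 to 60.9% in knockout mice.

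Tsc1 (chromosome 2, 28641233 to 28691172), which encodes hamartin, the stabilising partner of TSC2, was at 93.4, 90.5, 106 and 94.2 CPM in control mice and 60.3, 65.2, 74.1 and 57.7 CPM in knockout mice. The groups did not overlap. Tsc1 had a log2 fold change of -0.58 (SE 0.09, adjusted p = 3.66e-04), a level of 0.669 of control with a 95% interval of 0.582 to 0.770 (exact permutation p = 0.0286). It held its call in 16 of 17 alternatives. The exception was scaling by library totals alone, where it was 0.089 (adjusted p = 0.313). That scaling moved the median of all genes from 0.07 to 0.73, and relative to these medians Tsc1 was at -0.64 under both.

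Tsc2 (chromosome 17, 24595816 to 24632627), the subunit that carries the GTPase-activating domain for RHEB, was at 135, 135, 146 and 144 CPM in control mice and 131, 131, 138 and 119 CPM in knockout mice. The highest knockout reached into the control range. The log2 fold change was -0.11 (SE 0.07, adjusted p = 0.193, 95% interval -0.26 to 0.04). The span of Tsc2 overlaps that of Pkd1 on the other strand by 699 bases, and the use of strand in the counting was not given in the sources used here.

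The ratio of Tsc1 to Tsc2 per exon base was 0.575, 0.559, 0.606 and 0.546 in control mice and 0.383, 0.414, 0.446 and 0.405 in knockout mice. The ratio was lower in every knockout than in any control, and it does not depend on the scaling. The log2 difference was -0.47 (exact permutation p = 0.0286, adjusted p = 0.0458 over 8 pairs), and leaving out any library kept it between -0.51 and -0.44 with the same p.

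Rheb (chromosome 5, 24802823 to 24842361), the GTPase that the TSC complex switches off, was at 94.5, 83.2, 92.5 and 83.4 CPM in control mice and 82.6, 80.4, 87.4 and 77.5 CPM in knockout mice, with overlap. The log2 fold change was -0.11 (SE 0.07, adjusted p = 0.209, 95% interval -0.27 to 0.05). The ratio of Rheb to Tsc2 had geometric means of 2.66 and 2.67 per exon base, a log2 difference of 0.003 (exact permutation p = 1), and stayed within -0.037 to 0.052 with any library left out. The third component of the TSC complex, Tbc1d7, and the RHEB relative Rhebl1 did not pass the test either, at log2 fold changes of -0.24 and -0.08.

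**Figure D2:**
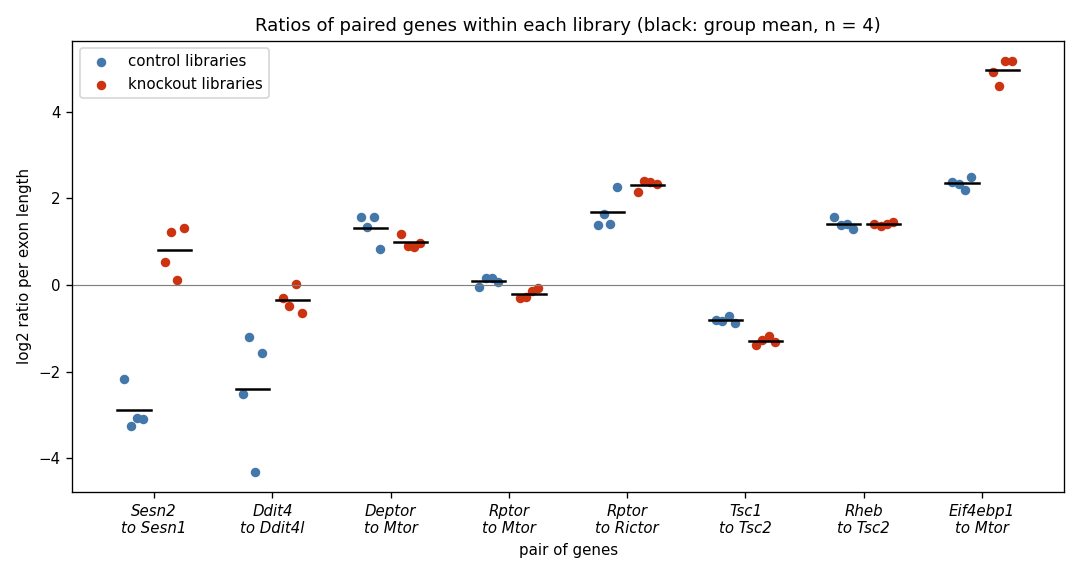
Log2 ratio of 8 pairs of genes per exon base (vertical axis) within each control (blue) and knockout (red) library, with the group mean as a black line, n = 4. The ratios of Sesn2 to Sesn1, Ddit4 to Ddit4l and Eif4ebp1 to Mtor are higher in all knockouts and those of Rptor to Mtor and Tsc1 to Tsc2 lower, and Rheb to Tsc2 lies at 1.41 and 1.42 on average.

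Mtor (chromosome 4, 148448582 to 148557685) was the member with the smallest fold change. It was at 70.5, 66.8, 69.9 and 74.2 CPM in control mice and 75.8, 79.5, 71.7 and 67.2 CPM in knockout mice. The groups overlapped, and the log2 fold change was 0.06 (SE 0.07, adjusted p = 0.461). The 95% interval ran from -0.09 to 0.22. The span of Mtor holds 5183 bases shared with Angptl7 on the other strand.

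Rptor (chromosome 11, 119602905 to 119899591), which encodes Raptor, the subunit that recruits substrates and defines mTORC1, was at 56.1, 61.1, 63.5 and 64.0 CPM in control mice and 49.995, 53.3, 53.5 and 52.6 CPM in knockout mice. All knockouts were below all controls, but the gap was small. With Tsc1, Ddit4l and Sesn2 it was 1 of 4 members whose groups did not overlap (3 lower, 1 higher), against 53.4% of all genes in either direction, 24.4% lower and 29% higher. The log2 fold change was -0.23 (SE 0.06, 95% interval -0.37 to -0.08), and the adjusted p of 0.0121 lay just above the threshold. It passed under RLE size factors (-0.27, adjusted p = 0.00581), in DESeq2 (-0.27, adjusted p = 0.00111) and without control replicate 1 (-0.26, adjusted p = 0.00607). With library totals alone it passed in the opposite direction (0.44, adjusted p = 0.00065), below the median of all genes, which was then 0.73. Relative to Mtor in the same library, Rptor was at 0.976, 1.12, 1.11 and 1.05 in control mice and 0.807, 0.821, 0.914 and 0.958 in knockout mice. The log2 difference of -0.29 had an exact permutation p of 0.0286 (adjusted p = 0.0458 over 8 pairs), and of 0.0571 if control replicate 2, 3 or 4, or else knockout replicate 1 or 2, was left out.

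Raptor and Rictor, the defining subunit of the sister complex mTORC2, can be set against each other in the same way. Rictor fell from 25.9 ± 5.87 to 13.95 ± 0.72 CPM (SD, n = 4 each; log2 fold change -0.89, adjusted p = 6.77e-04), a call lost with library totals alone (-0.21, adjusted p = 0.169). The ratio of Rptor to Rictor per exon base was 2.63, 3.14, 2.68 and 4.77 in control mice and 4.42, 5.27, 5.22 and 5.06 in knockout mice. Control replicate 4 lay inside the knockout range. The log2 difference was 0.64 (exact permutation p = 0.0571, adjusted p = 0.0761 over 8 pairs), and 0.83 without that library (p = 0.0286 by the same exact test). With any other library left out, the log2 difference was 0.54 to 0.69 (exact permutation p = 0.0571 to 0.0857).

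Deptor (chromosome 15, 55112317 to 55259273), the inhibitor bound to mTOR in both complexes, was at 212, 170, 209 and 133 CPM in control mice and 173, 149, 134 and 133 CPM in knockout mice. Control replicate 4 was as low as the lowest knockouts. Its log2 fold change was -0.30 (SE 0.15, adjusted p = 0.112, 95% interval -0.63 to 0.04). The ratio of Deptor to Mtor was 2.51 in control mice and 1.98 in knockout mice (geometric means, exact permutation p = 0.143). Its log2 difference was -0.34 over all libraries and -0.51 without control replicate 4 (exact permutation p = 0.0286). With any other library left out, the log2 difference was -0.41 to -0.26 (exact permutation p = 0.143 to 0.257).

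The order of the levels per exon length also changed. In the controls Ddit4l was highest (107 RPKM), followed by Rheb (58.1), each above the next member in every library. Ddit4 (23.1), Tsc2 (21.8) and Deptor (20.9) overlapped in this order, and so did Tsc1 (12.5), Sesn1 (11.3), Rptor (8.72) and Mtor (8.19), but Deptor lay above Tsc1 without overlap. Sesn2 was last at 1.54 RPKM, below Mtor without overlap. In the knockouts Rheb was highest (53.9 RPKM), apart from Ddit4l (34.1) in every library. Ddit4l, Ddit4 (27.8), Tsc2 (20.2), Sesn2 (18.6) and Deptor (16.99) overlapped in this order. Sesn1 (10.7) lay below Deptor without overlap and overlapped Mtor (8.55), as Mtor did Tsc1 (8.34) and Tsc1 did Rptor (7.45). Sesn2 was therefore the scarcest member in control muscle and of the same order as Tsc2 and Deptor in knockout muscle.

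**Figure D3:**
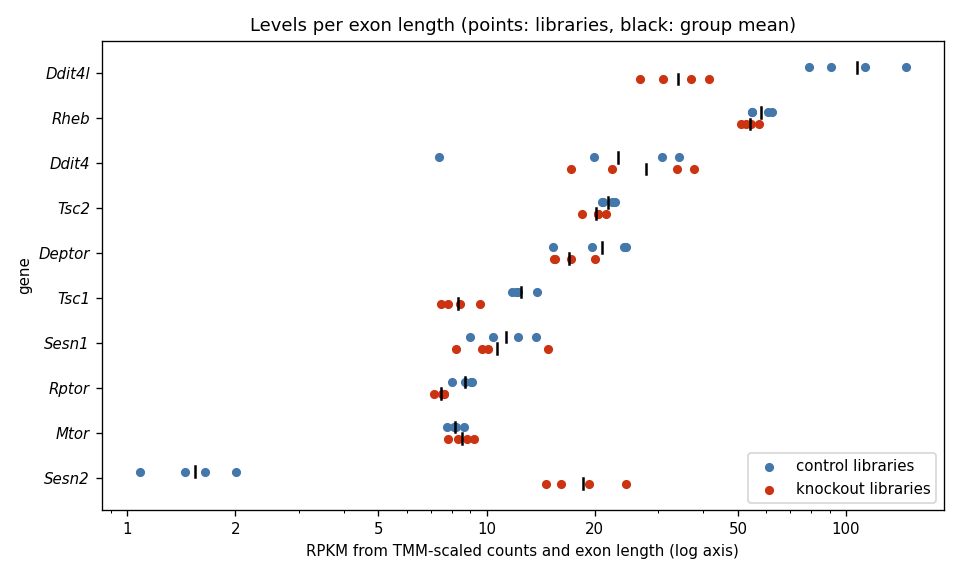
Level of each gene in RPKM (horizontal log axis) in each control (blue) and knockout (red) library, with group means in black, ordered by the control mean. Sesn2 moves from the lowest mean, 1.54, to 18.6 RPKM, and Ddit4l from 107 to 34.1, while the points of most other genes lie close together.

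The genes whose log2 CPM over the 8 libraries was most like that of Sesn2 were Usp20 (Pearson r = 0.9975), Me2 (0.9969) and Baz1a (0.9962). For Ddit4l they were Ercc6l2 (0.9933), Pfkfb3 (0.9924) and Fbxl5 (0.9909). These correlations include the difference between the groups, which many genes share, and are descriptions only.

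Of the wider pathway, 75 genes in 5 lists were measured, of which 18 were higher, 28 lower and 29 not past the threshold (median log2 fold change -0.16), where 23.6% of all genes were higher and 21.1% lower. The share higher was thus close to that of all genes, while the share lower was above it, in lists chosen with earlier results known. The counts of the single lists below are to be read against the same shares. Among 9 other mTOR complex subunits 2 were higher and 3 lower, with a median of -0.23. Telo2 (1.055) and Tti2 (0.58) rose and Tti1 (-0.65) fell, although the 3 proteins form 1 complex that folds mTOR and related kinases. Akt1s1, the mTORC1 inhibitor PRAS40, was at -0.37 (adjusted p = 0.00285), a call lost with the adipocyte covariate or if knockout replicate 1 or 4 was left out. Mlst8, a subunit of both complexes, was at -0.23 (adjusted p = 0.0878).

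In the lysosomal amino acid branch, through which the sestrins act, 5 of 29 genes were higher and 8 lower (median -0.05). Among the Rag GTPase genes Rragc was at 0.89 and Rragd at -1.62, while Rraga (0.12, adjusted p = 0.149) and Rragb (0.32, adjusted p = 0.228) did not pass. Gatsl2, which encodes the GATOR2-binding protein CASTOR2, fell by 1.75 on the log2 scale and BC048403, a KICSTOR subunit, was at 1.05 (adjusted p = 0.00399, a call lost in 6 of 17 alternatives). Of 20 growth factor and energy inputs 7 were higher and 10 lower (median -0.27), with Igf1r (1.16) and Prkab1 (1.05) the most raised and Prkab2 (-2.46) and Prkag3 (-1.73), subunits of the energy sensor AMPK typical of muscle, the most reduced. Of 15 mTORC1 targets 4 were higher and 7 lower (median -0.05). These are mRNA levels and do not measure the activity of mTORC1. By immunoblot the study found more phosphorylated ribosomal protein S6, which lies downstream of mTORC1, in the knockout muscle.

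Eif4ebp1, the translation repressor that mTORC1 phosphorylates, went from 41.1 ± 4.92 to 263 ± 31.2 CPM (SD, n = 4 each; log2 fold change 2.68, adjusted p = 1.45e-07). Relative to Mtor per exon base its geometric mean went from 5.09 to 31.2, with no overlap of the groups (log2 difference 2.62, exact permutation p = 0.0286, adjusted p = 0.0458 over 8 pairs). As Mtor did not pass the test, this ratio largely repeats the rise of Eif4ebp1 and is no separate support. Grb10 (1.88), an adaptor that restrains insulin signalling, also rose, whereas Lpin1 (-1.77), a regulator of lipid synthesis, and Ulk1 (-1.37), the kinase that starts autophagy, fell. Several paralogues moved in opposite directions, a pattern named after the values were seen: Akt1 rose by 1.01 and Akt2 was at -0.49, Prkaa1 was at 0.50 and Prkaa2 at -1.02, Fnip2 at 0.75 and Fnip1 at -1.11, Tfe3 at 0.48 and Tfeb at -1.24, and Eif4ebp2 was at -0.84 beside Eif4ebp1, all past the threshold. With library totals alone Akt2 and Tti1 turned to 0.18 and 0.017, and Eif4ebp2 (-0.16, adjusted p = 0.258) and Fnip1 (-0.45, adjusted p = 0.0141) lost their calls.

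**Figure D4:**
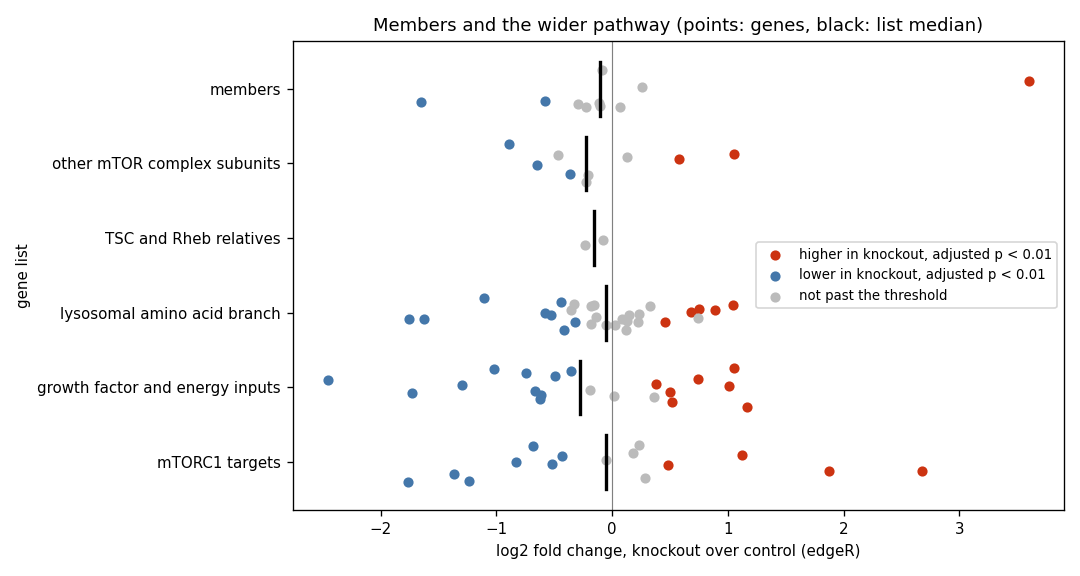
Log2 fold change, knockout over control (horizontal axis), of the 10 members and of 75 genes in 5 pathway lists (rows), with genes past an adjusted p of 0.01 in red (higher) or blue (lower), others in grey and the list median as a black line. Sesn2 at 3.60 lies farthest to the right, every list but that of the TSC and Rheb relatives holds genes called in both directions, and all list medians lie between -0.27 and -0.05.

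Lists of genes from the upstream stress pathways known to control the sestrins and DDIT4 proteins are described by their counts, beside 23.6% of all genes higher and 21.1% lower. Of 14 genes of the ATF4 axis, to which Sesn2 is known to respond, 13 were higher (median 4.28). Among these, Atf4, Atf5, Ddit3, Fgf21, Gdf15, Mthfd2 and Psat1 had already been reported as raised by the study. The list was chosen with earlier results known, so this count is a description only. Chac1 was at -1.15 (adjusted p = 0.0201) and passed as lower without control replicate 2 (-1.41, adjusted p = 0.00208). Depending on the library omitted, its log2 fold change lay between -1.41 and -0.76, and the adjusted p reached 0.0576. Chac1 levels were 80.0, 45.1, 189 and 128 CPM in control replicates 1 to 4, highest in replicate 3. In knockout mice they were 39.8 to 64.8 CPM, so the groups overlapped. Gdf15 was at 0.07 ± 0.05 CPM in control mice and 53.2 ± 12.7 in knockout mice (SD, n = 4 each), and Fgf21, with 0 counts in all controls and 26.3 ± 7.92 CPM in knockout mice, was at least 505-fold higher, taken against 3 counts over the control group. Placing Fgf21 at that bound leaves the median at 4.28.

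Of 11 genes of the p53 axis, known to control both Sesn1 and Sesn2, 8 were higher and 1 lower (median 1.16), with Cdkn1a at 3.58, Eda2r at 2.68 and Ccng1 at -1.52. Of 9 genes of the glucocorticoid axis 1 was higher and 3 lower (median -0.03), Mt2 at 5.20, Tsc22d3 at -1.50 and the receptor gene Nr3c1 at -0.66. Mt2, a metallothionein, is also known to respond to metals. Of 10 genes of the hypoxia axis 3 were higher and 3 lower (median -0.03), among them Egln3 (2.21), Slc2a1 (2.18), P4ha1 (-1.84) and Vegfa (-0.36). Ddit4, which the last of these pathways are known to induce, did not pass the test, as given above, and whether any of them bears on the members was not tested.

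**Figure D5:**
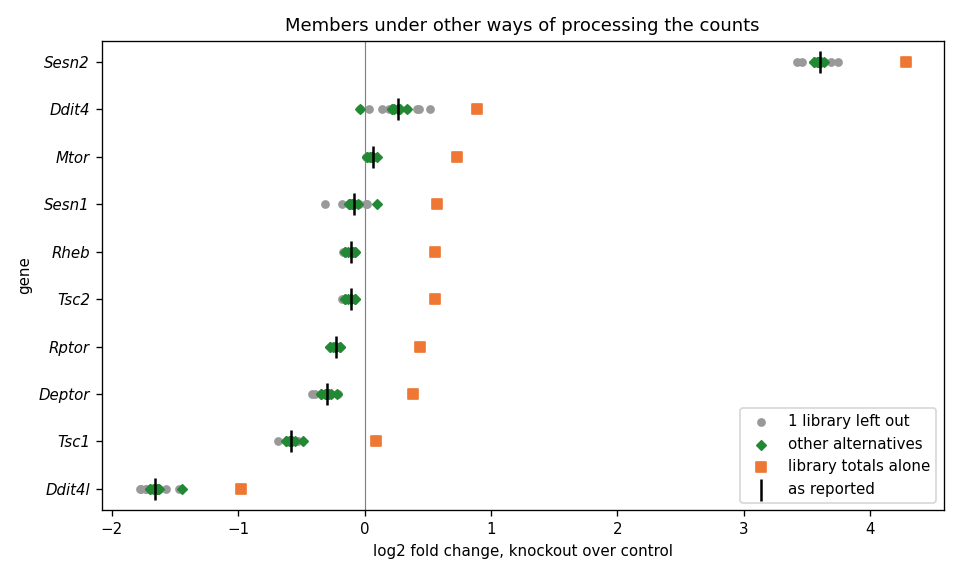
Log2 fold change of the 10 genes (rows; horizontal axis, knockout over control) as reported (black line), with 1 library left out (grey), under other alternatives (green) and with library totals alone (orange). Sesn2 stays between 3.42 and 4.28 and Ddit4l between -1.78 and -0.98, and library totals alone shift every gene to the right by a similar amount.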

How the data were processed

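Polyadenylated RNA was sequenced in strand-specific libraries. The deposited raw counts came from Rsubread, after bcl2fastq 2.20.0.422, trimming by cutadapt and alignment by STAR 2.5.4b to GRCm38, without duplicate, chimeric, multimapping or poorly mapped reads, for genes with at least 50 reads in total. The annotation release and the use of strand are not given in the sources used here. The deposited exon widths, used for RPKM and ratios, are base counts per gene. The FPKM values and DESeq2 1.32.0 results (fold changes, p-values) of the same table were not used.

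All 14012 genes were tested with edgeR 4.0.16 (limma 3.58.1, R 4.3.3), quasi-likelihood, TMM scaling, the label as the only term, and an adjusted p under 0.01. Single values and ratios were compared by two-sided exact permutation over 70 assignments, the smallest p being 0.0286. A ratio of a called gene to one not called largely repeats the result of the called gene. The p-values measure the spread between libraries labelled as separate mice; same-group pairs differed by more than counting allows (chi-square over degrees of freedom, 17.2 to 42.7). Precision is limited by 16017565 to 20361144 counts per library, and a count of 0 allows up to 3 counts, for counting error only.

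The members, the lists and the pairs of genes in the ratios were chosen with earlier results of these data known. Named genes are the members, the up to 2 genes per list with the largest and the smallest log2 fold change past the threshold whose higher group averaged 50 counts or more, the 3 genes most correlated with the most raised and the most reduced member, the partners in the ratios and Grpel1; Akt1s1, Mlst8, Sesn3, Rraga, Rragb, Tbc1d7, Rhebl1, Chac1 and the paralogues were added after their values were seen. Alternatives were RLE, upper-quartile and total-count scaling, leaving out the 20 most abundant genes, a filter on low counts, DESeq2 1.42.0, thinning to the smallest library (seed 11), the replicate number as a block, an adipocyte covariate and each library left out. The procedure was tested on simulated data. Promoter windows are from RefSeq (GRCm38.p6).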

Additional observations from a re-analysis of the deposited data

How the results depend on the processing

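The lowest count of a member in a library was 44. Sesn2 and Ddit4l kept direction and call in all alternatives run and Tsc1 in all but scaling by library totals alone. That scaling called 9371 genes (6265 as reported), left 5 members higher and 1 lower, and turned Rptor to 0.44, Tsc1 to 0.089, Tsc2 to 0.56, Rheb to 0.56, Deptor to 0.38 and Sesn1 to 0.57, and also Tti1 to 0.017, Nr3c1 to 0.010, Vegfa to 0.31, Akt1s1 to 0.30, Mlst8 to 0.44, Akt2 to 0.18, Tbc1d7 to 0.44 and Rhebl1 to 0.58. It also ended the calls of Rictor, Eif4ebp2 and Fnip1 and called Mtor (0.73), Sesn3 (1.40), Rraga (0.79) and Rragb (0.99) higher. These shifts follow from the scaling, which moved the median of all genes from 0.07 to 0.73. With the adipocyte covariate Ddit4 was at -0.036 and Sesn1 at 0.10. With 1 library left out, Ddit4 ranged from -0.033 to 0.52 and Sesn1 from -0.31 to 0.021, and the cause was not tested. Over the same libraries left out, the log2 ratio of Ddit4 to Ddit4l ranged from 1.41 to 2.45, of Deptor to Mtor from -0.51 to -0.26, of Rptor to Mtor from -0.33 to -0.25, of Rptor to Rictor from 0.54 to 0.83 and of Rheb to Tsc2 from -0.037 to 0.052, and 5196 to 5867 genes were called.

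Libraries of the same replicate number deviated together with correlations of 0.236, 0.0198, 0.517 and 0.176, of which 1 was under 0.1 and 3 above it. These values do not settle whether the numbers pair the samples, and the labels do not say so. The fit reported above used no pairing. The fit with the replicate number as a block called 6123 genes, and among the members again 1 higher and 2 lower, with Sesn2 at 3.59, Ddit4l at -1.64, Tsc1 at -0.58 and Rptor at -0.22. In the ATF4 axis it called 13 genes higher and 1 lower, Chac1. Control replicate 2 and knockout replicate 2 correlated better with another number than with their own, the other 6 libraries best with their own. Over 765 values of 45 further named genes in the alternatives, which were run on them after the data were seen, 740 kept direction and side of the threshold, 12 lost their call, 5 gained one and 8 turned. The family sums kept their direction with any library left out.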
